A study of Mus musculus with 4 samples.

Results

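The genes described here are 10 that cells use to sense RNA in the cytosol and to pass the signal on. They are the RNA sensors Ddx58 (RIG-I), Ifih1 (MDA5) and Dhx58 (LGP2), the nucleic acid sensor Zbp1, the RNA-binding enzymes Eif2ak2 (PKR) and Adar, the adaptor Mavs, the kinases Tbk1 and Ikbke, and Xaf1, an interferon-inducible gene that promotes cell death. They were chosen by name for their place in the pathway, though with earlier results of these data known. These 10 are among the 19937 genes that the arrays measured. All 10 were found, each through 1 probe set that named no other gene, and all 10 had a mean above the median log2 intensity of 6.26 over all probe sets.

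RNA of resting CD4 T cells from the spleen of mice aged 6 to 8 weeks was measured on 4 microarrays, with 2 for each genotype: wild type (WT), and mice without the Ifitm gene family (IfitmF–/–). The Ifitm genes encode interferon-inducible transmembrane proteins that hinder the entry of viruses. Per the study, each array held cells pooled from 2 mice, replicates were purified separately, and the deletion was carried on a C57BL/6 background. The cells had received no stimulus and were enriched by negative selection, which leaves behind whatever the antibodies do not remove. The deletion was present in the whole animal and not limited to T cells. In such bulk samples, fewer cells of a type and less RNA per cell cannot be told apart.

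The comparison asks how the absence of the IFITM proteins changes the RNA of resting CD4 T cells. The deleted genes Ifitm1, Ifitm2 and Ifitm3 were lower on both IfitmF–/– arrays, and the log2 change of Ifitm3 was -4.60 (adjusted p = 0.00778). Xist, which is transcribed from the inactive X chromosome, lay at a log2 intensity of 11.25 to 11.32 in WT but only 4.43 to 4.86 in IfitmF–/– cells. The Y-linked gene Eif2s3y lay at 3.90 to 4.05 in WT but 9.48 to 9.61 in IfitmF–/– cells. By these genes the genotypes differed in sex, and sex and genotype cannot be told apart in any comparison here. All 10 sensor and kinase genes lie on autosomes. Arrays correlated at 0.991 to 0.993 within a genotype and at 0.976 to 0.979 between genotypes.

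RIG-I and MDA5 are helicases that bind double-stranded RNA, as viruses make it, and then join with MAVS on the surface of mitochondria. MAVS gathers TBK1 and its relative IKKε, the product of Ikbke, which phosphorylate the transcription factors IRF3 and IRF7 and so switch on the type I interferon genes. Most of the sensors are themselves induced by interferon, through promoter elements built on repeats of GAAA. T cells carry this machinery at rest, although they are best known for making other cytokines.

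Of the 10 genes, 3 were called higher in IfitmF–/– cells and none was called lower at an adjusted p under 0.05. The called genes were Ddx58, Mavs and Xaf1, with changes of 0.50, 0.50 and 0.68 on the log2 scale, or 1.42-, 1.41- and 1.61-fold. Over all 19937 genes, 8.57% were called, 4.96% higher and 3.61% lower. On 8 of the 10 genes both IfitmF–/– arrays lay above both WT arrays, which was the case for 27.9% of all genes. On 1 of them, Tbk1, both lay below, as for 30.8% of all genes, and the groups overlapped for Ifih1. The median change of the 10 genes was 0.36, beside -0.020 over all genes. Leaving out any 1 of the 4 arrays ended all 3 calls, but it also ended every call over all probe sets, so the loss is not particular to these genes. The changes were then 0.47 to 0.54 for Ddx58, 0.46 to 0.53 for Mavs and 0.57 to 0.80 for Xaf1. For its arrays the study names empirical-Bayes moderated t-statistics with false discovery rate control, which is the kind of test behind the calls here. Its general statistics section names an unpaired Student's t-test, called the methods' t-test below. Run on the same values, that t-test called none of the 10 after Benjamini-Hochberg adjustment and only 4 of all 34760 probe sets. It gave 6 of the 10 genes an unadjusted p under 0.05.

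**Figure D1:**
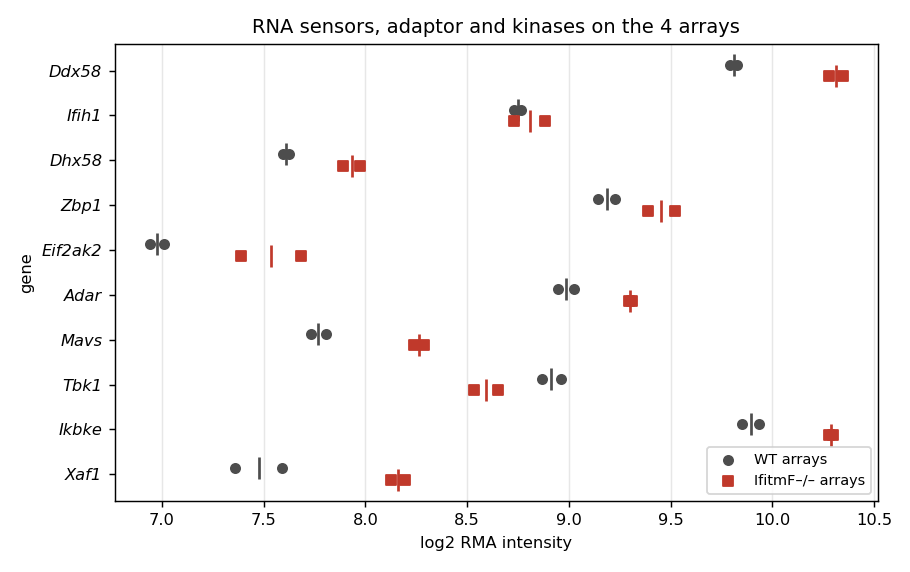
The log2 RMA intensity (x axis) of each of the 10 genes (y axis) on the 2 WT arrays (circles) and the 2 IfitmF–/– arrays (squares), with a vertical line at each group's mean. The squares lie to the right of the circles for 8 genes, to the left for Tbk1, and overlap them for Ifih1. Positions of different genes on the x axis are not comparable, because each probe set binds with its own strength.

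The promoter sequence of the sensor genes is shown first, since the elements through which interferon acts lie there. A RefSeq table for the assembly GRCm38.p6 held the 250 bases before and the 50 bases from each transcript start for 8 of the 10 genes. Dhx58 and Zbp1 were not in it. The stretches below are written 5′ to 3′ on the strand of the gene, with a pair of GAAA repeats in capitals. In Ddx58, Xaf1 and Adar a single C stands between the repeats, and in Eif2ak2 and Ifih1 there are 2 bases between them. The stretch of Ddx58 is at chr4:40239867-40239896 (minus strand), that of Xaf1 at chr11:72301628-72301657 (plus strand), that of Adar at chr3:89730735-89730764 (plus strand), that of Eif2ak2 at chr17:78882535-78882564 (minus strand) and that of Ifih1 at chr2:62646206-62646235 (minus strand).
Ddx58: gtctaggttcaGAAACGAAActggatcccc
Xaf1: ctgtgtgcaaaGAAACGAAActccacagaa
Adar: gccttttcaagGAAACGAAAgtgaactctg
Eif2ak2: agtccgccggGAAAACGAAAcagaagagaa
Ifih1: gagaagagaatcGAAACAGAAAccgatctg

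The core of the interferon-stimulated response element was searched on both strands as GAAA, any 2 bases, GAAA. It was found in 3 of the 8 genes, Ddx58, Eif2ak2 and Ifih1, and in 3.99% of the 27025 genes with a window (3.44% of 32851 windows). Counting the transcript start as base 1, its first base lay at base 19 in Eif2ak2 and at base 33 in Ifih1. In Ddx58 the match lay at base 3 on the opposite strand, so that it reads TTTC, 2 bases, TTTC on the strand of the gene (chr4:40239804-40239833).
Ddx58, around the start: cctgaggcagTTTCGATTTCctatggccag

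The same repeats with 1 base between them were searched after the sequences had been read, and were found in 3.70% of all genes with a window. They lay 60 bases before the start of Ddx58, at base 11 of Xaf1 and at base 29 of the third of 3 starts of Adar. In all of these the base between was C, a form held by 60 genes, or 0.222% of those with a window. That form too was set after the sequences of these genes had been read, so its share cannot show an excess among them. The gamma-activated site, TTC, any 3 bases, GAA, was found in Eif2ak2, 178 bases before the start, and in Adar at base 23 of the same start, where it overlaps the paired repeats. It was present in 9.55% of all genes. None of the searched motifs was found in the windows of Mavs, Tbk1 or Ikbke, which says only that these letters are not in these windows. A match is a description of the sequence, not a measured site.

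**Figure D2:**
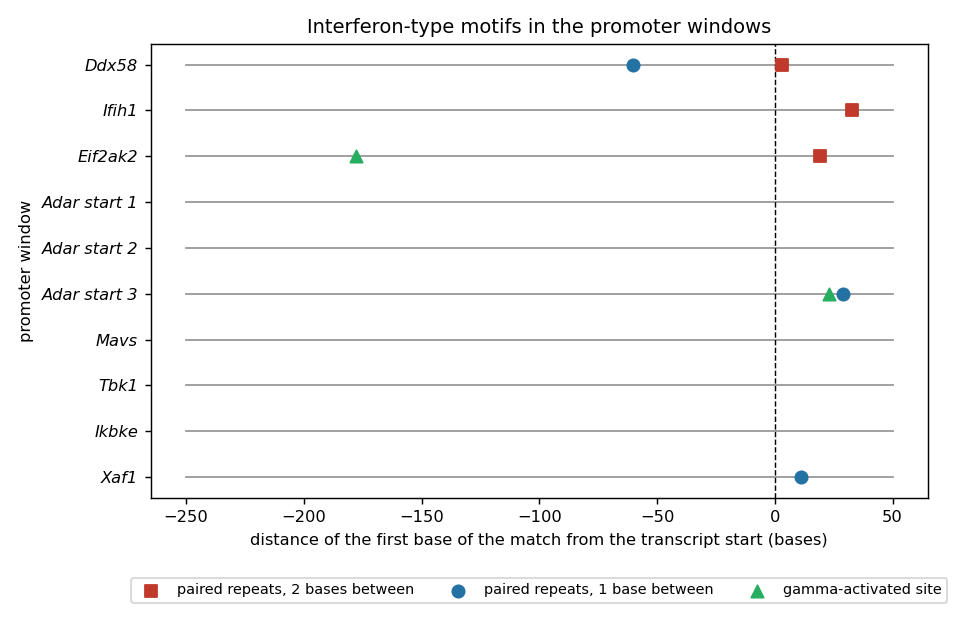
The x axis gives the distance in bases of a motif's first base from the transcript start (dashed line), and each grey line is 1 promoter window from the RefSeq table, with 3 starts for Adar (y axis). Squares mark paired GAAA with 2 bases between, circles paired GAAA with 1 base between, and triangles the gamma-activated site. Matches lie in Ddx58, Ifih1, Eif2ak2, Xaf1 and the third start of Adar, and the windows of Mavs, Tbk1 and Ikbke hold none.

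The RNA helicases of the RIG-I family were then compared. Ddx58 had a log2 intensity of 9.83 and 9.79 in WT and of 10.28 and 10.35 in IfitmF–/– cells, so the groups lay well apart and both arrays of a genotype lay close together. RIG-I binds the ends of short double-stranded RNA that carry a triphosphate. Its change was 0.50 (SE 0.080, 95% interval 0.29 to 0.72, limma adjusted p = 0.0391), and 93.4% of all genes had a lower change. Ifih1, whose product MDA5 binds long double-stranded RNA, lay at 8.77 and 8.73 in WT and at 8.73 and 8.88 in IfitmF–/– cells. The first IfitmF–/– array was level with WT and the second lay above it. The change was 0.058 (95% interval -0.19 to 0.30, adjusted p = 0.742), which leaves room for a fold of 0.877 to 1.24, and it was -0.018 without the second IfitmF–/– array.

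Dhx58 encodes LGP2, a helicase without the signalling domains of RIG-I and MDA5 that modulates both. It lay at 7.63 and 7.60 in WT and at 7.89 and 7.97 in IfitmF–/– cells, with no overlap and a change of 0.32 (95% interval 0.10 to 0.54) that missed the threshold (adjusted p = 0.0944). The 2 helicases that signal through MAVS were set against each other within each array, where the log2 difference of Ddx58 minus Ifih1 was 1.06 for both WT arrays but 1.55 and 1.47 for the IfitmF–/– arrays. The difference thus moved by 0.45, with no overlap between the genotypes. Lack of overlap was not particular to this pair, as most pairs of the genes described here showed it. The move itself was not tested, and an exact permutation test of 2 against 2 arrays cannot go below p = 0.333. Both carry paired GAAA in the windows shown above, Ddx58 in both spacings and Ifih1 with 2 bases between.

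Eif2ak2 encodes PKR, a kinase that binds double-stranded RNA and stops translation by phosphorylating the initiation factor eIF2α. Its levels were 7.01 and 6.94 in WT and 7.39 and 7.68 in IfitmF–/– cells. The IfitmF–/– arrays differed by 0.29 from each other, the widest gap within a genotype among the 10 genes, and both lay above WT. The change of 0.56 (95% interval 0.22 to 0.90, 1.47-fold) was larger than that of Ddx58, but with this spread it did not pass the test (adjusted p = 0.0763). It passed when only the 21640 probe sets of 1 gene were tested (adjusted p = 0.0414). Under most other settings it did not, among them the methods' t-test (adjusted p = 0.283).

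Adar encodes the enzyme that turns adenosine into inosine in double-stranded RNA, which keeps the cell's own RNA from being sensed by MDA5 and PKR. It lay at 8.95 and 9.02 in WT and at 9.29 and 9.31 in IfitmF–/– cells. The IfitmF–/– arrays were nearly equal, and the change was 0.32 (95% interval 0.10 to 0.53, adjusted p = 0.0948). Zbp1 encodes a sensor of nucleic acid in the Z form that leads to necroptosis. It lay at 9.14 and 9.23 in WT and at 9.52 and 9.39 in IfitmF–/– cells. The groups did not overlap, with a gap of 0.16 between the nearest arrays against 0.084 within WT and 0.13 within IfitmF–/– cells, and the change of 0.27 (95% interval 0.020 to 0.52) was not called (adjusted p = 0.166).

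Mavs, the adaptor on which RIG-I and MDA5 meet, lay at 7.73 and 7.81 in WT and at 8.29 and 8.24 in IfitmF–/– cells. All 4 values kept to their group, with gaps within a genotype of 0.076 and 0.049 against 0.43 between the nearest arrays of the different genotypes. The change was 0.50 (95% interval 0.28 to 0.72, limma adjusted p = 0.0415), and 93.2% of all genes had a lower change. Xaf1, whose product binds the inhibitor of apoptosis XIAP, lay at 7.36 and 7.59 in WT and at 8.12 and 8.20 in IfitmF–/– cells. Its WT arrays were the farthest apart of the 10 genes, yet the change of 0.68 (95% interval 0.39 to 0.98, limma adjusted p = 0.0401) was also the largest of the 10, and 96.5% of all genes had a lower change.

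The kinases below MAVS differed from each other in the sign of their change. Tbk1 lay at 8.87 and 8.96 in WT and at 8.65 and 8.54 in IfitmF–/– cells, and Ikbke at 9.85 and 9.94 in WT and at 10.30 and 10.28 in IfitmF–/– cells. For Tbk1 both IfitmF–/– arrays were below both WT arrays, and for Ikbke both were above. Neither change was called, with -0.32 for Tbk1 (95% interval -0.56 to -0.074, adjusted p = 0.119) and 0.39 for Ikbke (95% interval 0.18 to 0.61, adjusted p = 0.0635). Ikbke passed under 5 of the 15 other settings, among them median centring and the fit to probe sets of 1 gene, and stayed uncalled under 10. Within each array, Tbk1 minus Ikbke was -0.98 for both WT arrays but -1.65 and -1.74 for the IfitmF–/– arrays. This move of -0.71 was without overlap, as for most pairs of the 10 genes, and was likewise not tested.

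**Figure D3:**
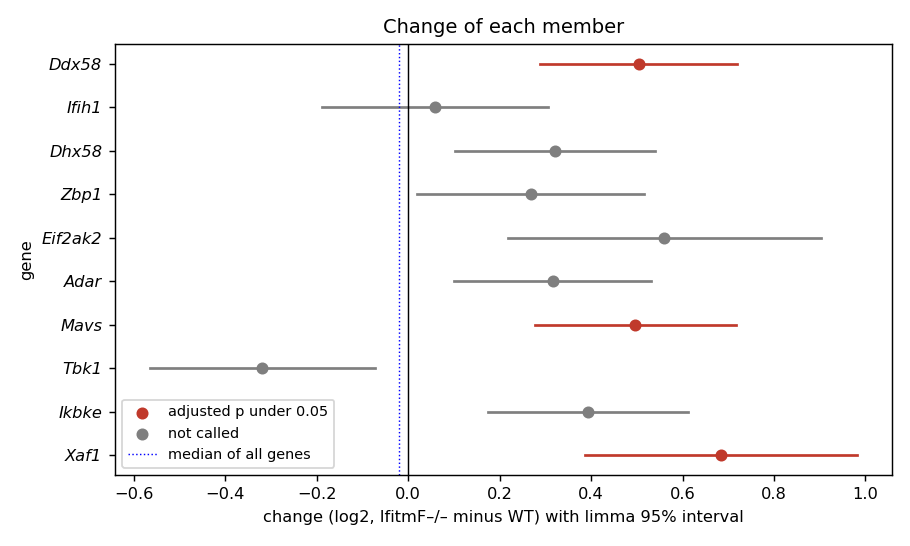
The change of each of the 10 genes (y axis) on the log2 scale, IfitmF–/– minus WT, with limma's 95% interval (x axis). Ddx58, Mavs and Xaf1 have an adjusted p under 0.05, Tbk1 is the only gene with an interval wholly below 0, and the interval of Ifih1 spans 0. The dotted line is the median of all genes, -0.020.

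The stretches before the starts of Mavs and Tbk1, whose changes had opposite signs, are shown with that of Ddx58. Each is the 100 bases up to the transcript start, at chr2:131233963-131234062 for Mavs (plus strand), chr10:121586795-121586894 for Tbk1 (minus strand) and chr4:40239826-40239925 for Ddx58 (minus strand). They hold 66% G and C in Mavs, 78% in Tbk1 and 68% in Ddx58, and the capitals in Ddx58 mark its pair of GAAA repeats.
Mavs: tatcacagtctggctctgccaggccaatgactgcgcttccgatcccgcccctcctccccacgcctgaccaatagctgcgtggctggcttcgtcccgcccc
Tbk1: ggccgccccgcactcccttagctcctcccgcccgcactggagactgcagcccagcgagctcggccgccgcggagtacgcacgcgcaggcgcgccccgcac
Ddx58: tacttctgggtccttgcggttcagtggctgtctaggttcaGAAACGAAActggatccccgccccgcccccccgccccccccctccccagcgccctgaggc

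Genes that work with these 10 were examined next, in 9 lists that together hold 101 genes, of which 92 were measured. Of the 92, 8 were called higher and 11 lower, beside 4.96% and 3.61% of all genes, and their median change was -0.010. All 19 calls were lost on leaving out any 1 array, as was every call over all probe sets. They were also lost under the methods' t-test, which called only 4 of all 34760 probe sets. The cofactors of the sensors, which help RIG-I and MDA5 bind RNA or add and remove ubiquitin, held 1 gene called higher and 5 called lower of 20. Ddx60, a helicase that is itself interferon-induced, rose by 0.86 (7.11 and 7.29 in WT, 8.03 and 8.08 in IfitmF–/– cells, adjusted p = 0.0231). Rnf125, a ubiquitin ligase that marks RIG-I and MDA5 for breakdown, fell from 12.30 and 12.26 to 10.32 and 10.36, a change of -1.94 (adjusted p = 0.00938). That is a 3.84-fold difference, the largest of this list.

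The ubiquitin ligases that activate RIG-I did not share a direction. Mex3c changed by -0.93 (adjusted p = 0.0203) and Trim25 by -0.50 (adjusted p = 0.0465), while Rnf135 had an uncalled change of 0.47 (adjusted p = 0.139). The helicases Dhx9 and Ddx3x, which bind viral RNA or assist MAVS, changed by -0.51 (adjusted p = 0.0388) and -0.49 (adjusted p = 0.0444). Ddx3x lies on the X chromosome, where the arrays of the genotypes also differ in sex. Median centring of the arrays ended the calls of Trim25 (adjusted p = 0.0580) and Ddx3x (adjusted p = 0.0555). The median change of the 20 cofactors was -0.14.

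Among the partners of MAVS, TBK1 and the interferon regulatory factors, 21 of 25 genes were measured, 4 were called higher and 2 lower, and the median change was 0.14. Irf3, the transcription factor that TBK1 phosphorylates, rose from 8.31 and 8.23 to 8.92 and 8.90, a change of 0.64 (adjusted p = 0.0265). Sike1, a suppressor of TBK1 and IKKε, rose by 0.91 (adjusted p = 0.0180), Fadd by 0.74 (adjusted p = 0.0203) and Rnf5, which breaks down MAVS, by 0.57 (adjusted p = 0.0310). Traf6, a ubiquitin ligase that MAVS recruits, fell from 10.09 and 10.24 to 9.07 and 9.07 (change -1.10, adjusted p = 0.0150). Tax1bp1, an adaptor that restrains antiviral signalling, changed by -0.67 (adjusted p = 0.0282). Irf7, the interferon-inducible partner of Irf3, had a change of 0.14 (adjusted p = 0.359). Irf3, Irf7 and Fadd lie on chromosome 7, as the deleted Ifitm cluster does.

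The interferons and chemokines that this pathway switches on gave 1 call, a lower one, among 8 measured of 10. Over all genes 8.57% were called. The median change of the list was -0.15. Ifnb1, the interferon β gene, lay between 4.87 and 5.14 on all 4 arrays, where 23.1% to 28.5% of probe sets were dimmer, and its change was -0.085 (adjusted p = 0.697). The chemokine gene Cxcl10 fell from 8.62 and 8.85 to 6.71 and 7.49, a change of -1.63 (adjusted p = 0.0455), although the IfitmF–/– arrays differed by more than the WT arrays. Ccl5, another chemokine gene, had a change of -0.60 (adjusted p = 0.0743). Of the 6 measured genes of interferon receptor signalling, limma called none and neither did the methods' t-test, while 1 had an unadjusted p under 0.05. That was the receptor chain Ifnar1 with a change of -0.39 (adjusted p = 0.0673).

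The translation pathway of PKR held 13 measured genes, of which 1 was called lower and none higher, a share near the 8.57% called over all genes, with a median change of -0.18. Eif2ak3 encodes PERK, the kinase that phosphorylates eIF2α when the endoplasmic reticulum is stressed. It lay at 10.60 and 10.79 in WT and at 8.14 and 8.20 in IfitmF–/– cells. Its fall of 5.75-fold (change -2.52, adjusted p = 0.00938) stood beside the positive but uncalled change of Eif2ak2 on the same arrays. Ppp1r15a, a subunit of the phosphatase that reverses this step, had a change of -0.58 (adjusted p = 0.0572), and Eif2b3, a subunit of the exchange factor for eIF2, had one of 0.45 (adjusted p = 0.0649).

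The partners of ZBP1 and XAF1 were the remaining genes of cell death. Of the 5 ZBP1 partners, Casp8 rose by 0.79 (10.91 on both WT arrays, 11.71 and 11.70 in IfitmF–/– cells, adjusted p = 0.0180) and Casp6 by 1.01 (adjusted p = 0.0175). Ripk3, the kinase of necroptosis, had a change of -0.49 that did not pass (adjusted p = 0.0510), and the median change of these 5 genes was 0.58. Of the 5 XAF1 partners, which are inhibitors of apoptosis and their regulators, Birc3 changed by -1.30 (adjusted p = 0.0131) and Birc2 by -0.84 (adjusted p = 0.0203). Xiap, an X-linked gene, had a change of 0.22 (adjusted p = 0.278).

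Deaminases other than Adar gave no call among 4 genes, by limma or by the methods' t-test, with 3 at an unadjusted p under 0.05. Adat1, which edits transfer RNA, had a change of 0.57 (adjusted p = 0.0672), while Adat2, which also edits transfer RNA, and Adarb1, a relative of Adar, had changes of -0.47 (adjusted p = 0.119) and -0.29 (adjusted p = 0.129). The median change of the list was -0.17. Sensors of DNA and of RNA in endosomes were a comparison group, with 10 genes measured of 11, 1 called higher and none lower. This share was near the 8.57% called over all genes. Sting1, the adaptor for cytosolic DNA sensing, rose from 10.37 and 10.27 to 11.19 and 11.28, a change of 0.92 (adjusted p = 0.0180). Tlr7, an X-linked sensor of RNA in endosomes, had a change of 0.89 with arrays from 6.88 to 8.58 and was not called (adjusted p = 0.251).

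**Figure D4:**
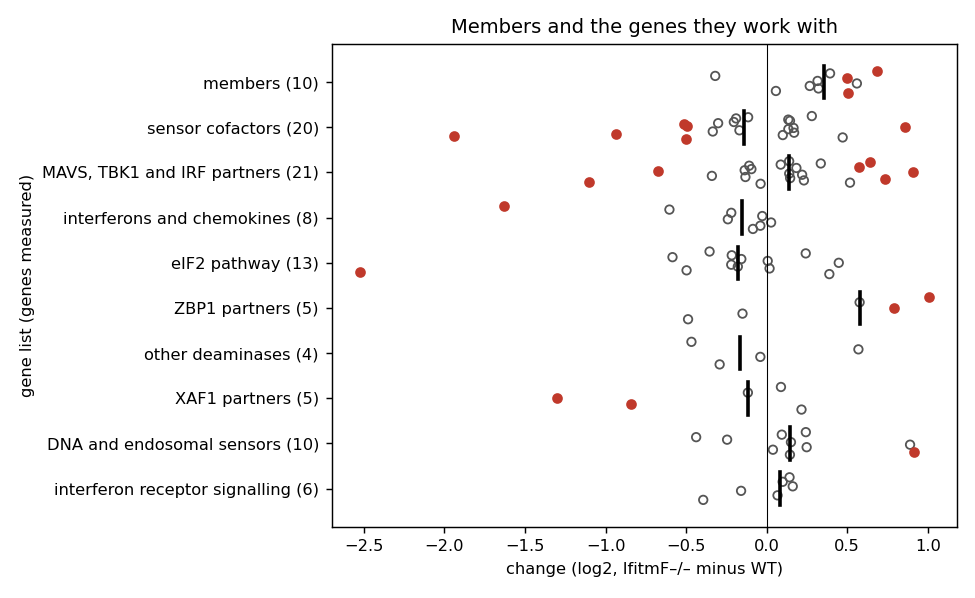
Change on the log2 scale, IfitmF–/– minus WT (x axis), of each measured gene in the 10 members and the 9 related lists (y axis, with the number of genes measured). Filled points have an adjusted p under 0.05, open points do not, with each list's median drawn as a black bar. Called points lie to the right among the members, the ZBP1 partners and the DNA and endosomal sensors, to the left among the XAF1 partners, the interferons and chemokines and the eIF2 pathway, and on both sides among the sensor cofactors and the MAVS partners.

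The genes whose levels over the 4 arrays were most like those of Ddx58, by root mean square distance of values centred on their own mean among 10493 genes, were Ctdsp1 (0.00888), Fbxo46 (0.00970) and Tab1 (0.00979). Their changes were 0.50, 0.51 and 0.51. Those most like Ifih1 were Ccdc59 (0.00801), Bloc1s6 (0.00981) and Adsl (0.0107), with changes of 0.067, 0.055 and 0.062. With 4 arrays, likeness mostly means a change of the same size.

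Markers of other spleen cells were examined on the same arrays. The CD4 T cell label was borne out by its markers, with Cd4 at 11.44 and 11.52 in WT and at 11.79 and 11.71 in IfitmF–/– cells. The summed linear intensity of 6 CD4 T cell markers was 21765 and 22505 in WT and 21793 and 21405 in IfitmF–/– cells. Among those markers, Cd3d and Cd3g rose by 0.59 each, and Ccr7, a homing receptor of resting T cells, changed by -0.87 (adjusted p = 0.0161). Cd4, Cd5 and Cd3e had uncalled changes of 0.27, 0.28 and -0.0087. The similar sums thus hold changes of opposite sign and do not show an equal CD4 T cell signal. No sort for naive cells was stated, and the label of resting cells refers to fresh, unstimulated cells.

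Other cell types left a signal in both genotypes. The sum of 7 B cell markers was 4912 and 1572 in WT and 1611 and 2548 in IfitmF–/– cells, so the first WT array stood apart. The sum of 4 plasma cell markers was 3531 and 2399 in WT and 1861 and 1694 in IfitmF–/– cells, lower without overlap, and the 7 myeloid markers summed to 3903 and 2187 against 2516 and 4980, which overlap. The 5 natural killer cell markers (968 and 712 in WT, 1184 and 1010 in IfitmF–/– cells), the 4 neutrophil markers (172 and 166, 253 and 293), the 3 erythroid markers (2510 and 3564, 5893 and 5325) and the 4 platelet markers (3563 and 2320, 4556 and 10368) were higher in IfitmF–/– cells without overlap. Single markers did not all follow these sums. Of the erythroid markers, Slc4a1 and Epb42 were higher without overlap, while Alas2 overlapped with a change of -0.0035. Of the platelet markers, Ppbp and Gp9 were higher without overlap, while Pf4 and Itga2b overlapped. None of these erythroid and platelet markers was called. Among the natural killer cell markers Eomes was called lower (change -0.79, adjusted p = 0.04995), and among the neutrophil markers only Retnlg was called, with a change of 1.83 (adjusted p = 0.0136). The 2 CD8 T cell markers summed to 504 and 341 in WT against 435 and 425 in IfitmF–/– cells, which overlap. The 4 plasmacytoid dendritic cell markers summed to 1025 and 782 against 1104 and 1102, higher without overlap. Of these 4, only Ccr9 was higher, with a change of 1.25. Siglech (-0.56), Bst2 (-0.20) and Cox6a2 (-0.54) were lower without overlap, and none of the 4 was called. Their sum thus does not show a higher plasmacytoid dendritic cell signal. The other cell types named here also express RNA sensors, and their part in the changes of the 10 genes was not tested.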

How the data were processed

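The deposited values were linear intensities normalized by the authors with RMA, which corrects background, quantile-normalizes the arrays (Affymetrix Mouse Gene 1.0 ST) and summarises probes. Quantile normalization hides any shift shared by all genes. RMA and affy are named in the submitters' processing notes, without versions. The genome build is not given in the sources used here. Here log2 was taken, with no filter, and limma 3.58.1 under R 4.3.3 (lmFit and eBayes without covariates) was fitted to 34760 probe sets with Benjamini-Hochberg adjustment, called at an adjusted p under 0.05. Residual degrees of freedom were 2, so the number of arrays limits the precision. Median intensity was 74.8 to 78.1. A gene was represented by its probe set of highest mean among the 21640 naming 1 gene.

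The members and lists were chosen with earlier results of these data known. Of each pathway list, the genes named were up to 3 of smallest p and called X-linked genes, and for likeness to Ddx58 and Ifih1 the nearest 3. Irf3, Rnf5, Tax1bp1, Trim25, Dhx9, Rnf135, Irf7, Ifnb1 and the markers named were added after their values were seen. Whether arrays of the same replicate number shared a day is not stated in the sources used here. The fit was tested on simulated data. Alternatives were other priors, normalizations, probe set choices, a dim-probe filter, a replicate block, the methods' t-test, the study's fold and range criteria, and leaving out arrays. Protein sequences were not analysed here.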

Additional observations from a re-analysis of the deposited data

How the results depend on the processing

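Of the 10 genes, 3 were called, of 92 pathway genes 19, and of all probe sets 2930. Without the dimmer probe sets, with probe sets of 1 gene, or with the mean of all probe sets of a gene, 5 of the 10 and 29 pathway genes were called, Ikbke and Eif2ak2 being added. The first of these settings called 4032 of 17380 probe sets. A trend prior (25 pathway genes) and median centring each called 4 of the 10, and the robust prior and renewed quantile normalization 3. The methods' t-test called 0 of the 10, 0 pathway genes and 4 probe sets (unadjusted p under 0.05 for 6, 36 and 6811). In the fit run here, the study's criteria of a fold over 2 and a range of at least 250 left 0 of the 10, 6 pathway genes and 403 probe sets. The study's own list of genes of interest, drawn from its differentially expressed genes, includes Ddx58, so this count does not match the study's calls.

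Leaving out any 1 array left 0 calls in each of the 3 counts, with 5 to 8 of the 10 genes at an unadjusted p under 0.05, and 1 residual degree of freedom fewer. With the replicate number as a block, the calls were 0, 0 and 0, with 7, 34 and 8016 at an unadjusted p under 0.05. Samples of the same number correlated at -0.124 in their deviations. With 2 arrays per group both pairs give the same value, so it cannot show whether the numbers mark a shared day. The crossed pairing, chosen after seeing the data, called 0, 9 and 975.

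The other direction was seen only on leaving out an array: Ifih1 was -0.018 without the second IfitmF–/– array (range over arrays left out -0.018 to 0.13), as were Ccdc59 (-0.016 to 0.15), Bloc1s6 (-0.033 to 0.14) and Adsl (-0.0050 to 0.13), and Ifnb1 was 0.047 without the first WT array (-0.22 to 0.047). The cause was not tested. The other 9 of the 10 genes kept their direction under every setting run.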
